A study of Mus musculus with 5 samples.

Results

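The loci of 6 T-box transcription factor genes, Tbr1, Eomes, Tbx20, Tbx2, Tbx3 and Tbx5, were examined for regions enriched with an antibody against Pou4f1 in the embryonic mouse retina. A region belonged to a locus if it overlapped the body of the gene, as annotated by GENCODE M21 on mm10, or lay within 50 kb of it. Of the 8038 regions deposited for the whole genome, 7 met this rule, with 2 each at Tbr1, Tbx2 and Tbx3, 1 at Tbx20 and 0 at Eomes and Tbx5. CUT&Tag maps the sites of a chromatin protein by having an antibody recruit a transposase that inserts sequencing adaptors into nearby DNA. Retinas of wild-type mice at E16.5 were pooled, 4 to a pool, and dissociated with papain, and libraries were made with rabbit anti-Pou4f1 (n = 2) or with rabbit IgG as the negative control (n = 2). A library for H3K9AC (n = 1) was not analysed here. All libraries came from whole wild-type retina, in which only part of the cells express Pou4f1, so that fewer cells with Pou4f1 at a site and less Pou4f1 at that site in each cell cannot be told apart. The methods describe the replicates as independent without saying whether each came from its own pool of retinas, so the p-values measure the spread between these libraries.

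T-box factors are transcription factors that recognise DNA through a shared T-box domain, and they are known for setting up regions and cell types in the embryo. In the retina, Tbr1 marks subtypes of retinal ganglion cells (RGCs), the output neurons of the eye, and Eomes, also called Tbr2, is needed for the RGCs that express melanopsin. Tbx2, Tbx3 and Tbx5 belong to the dorsal patterning programme that acts with Bmp4, while Tbx20 is best known from the heart. The authors also describe Tbx20 as acting downstream of Eomes in some of the RGCs that express melanopsin. Pou4f1 itself is a POU homeodomain factor of differentiating RGCs that binds AT-rich DNA.

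The sequences below were chosen to show the base composition of the Tbr1 regions and the single match to a POU pattern within the 7 regions. Those of the Tbr1 regions are the central 200 bp of each, read from mm10 on the plus strand, with every CpG in capitals. The stretch of exon 6 lies at chr2:61811889-61812088, is coding sequence and holds 31 CpG at a GC content of 76.0%. The stretch downstream of the gene lies at chr2:61815894-61816093 and holds 19 CpG at a GC content of 70.0%.
Tbr1 exon 6: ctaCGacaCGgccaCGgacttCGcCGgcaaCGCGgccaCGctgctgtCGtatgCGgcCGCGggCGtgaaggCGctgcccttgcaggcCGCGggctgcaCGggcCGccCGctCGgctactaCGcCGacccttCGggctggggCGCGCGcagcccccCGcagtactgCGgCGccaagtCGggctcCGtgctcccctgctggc
Tbr1 downstream: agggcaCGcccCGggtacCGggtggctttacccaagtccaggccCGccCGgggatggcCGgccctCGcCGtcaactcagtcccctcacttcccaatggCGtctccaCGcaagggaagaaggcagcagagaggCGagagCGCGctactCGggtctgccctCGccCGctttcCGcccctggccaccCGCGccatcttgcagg

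Of the 7 regions, the one upstream of Tbx3 was the only one with a match to a POU pattern. It is shown at chr5:119642311-119642419 on the plus strand, with the matched letters in capitals. The match reads as ATCAATAAT on the minus strand, from 119642361 to 119642369.
Tbx3 upstream: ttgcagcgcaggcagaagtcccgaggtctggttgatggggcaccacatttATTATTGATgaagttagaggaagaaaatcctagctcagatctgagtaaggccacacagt

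Promoter sequences from RefSeq (GRCm38.p6, the build of mm10) were held for 3 of the 6 genes, Tbr1, Eomes and Tbx20, and the 250 bases before the annotated start are shown because they differ in whether a region covered them. The Tbr1 promoter (chr2:61804203-61804452, plus strand) has TAATTA, the core of many homeodomain sites, in capitals. The Eomes promoter (chr9:118477939-118478188, plus strand) and the Tbx20 promoter (chr9:24774304-24774553, minus strand) have each CpG in capitals. Of these promoters, that of Tbx20 lay within a Pou4f1 region for its whole length, and those of Tbr1 and Eomes lay in none.
Tbr1 promoter: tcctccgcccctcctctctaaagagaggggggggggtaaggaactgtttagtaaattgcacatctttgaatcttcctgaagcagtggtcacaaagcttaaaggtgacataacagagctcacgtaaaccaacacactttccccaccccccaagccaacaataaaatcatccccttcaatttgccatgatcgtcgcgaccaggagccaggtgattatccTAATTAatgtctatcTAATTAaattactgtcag
Eomes promoter: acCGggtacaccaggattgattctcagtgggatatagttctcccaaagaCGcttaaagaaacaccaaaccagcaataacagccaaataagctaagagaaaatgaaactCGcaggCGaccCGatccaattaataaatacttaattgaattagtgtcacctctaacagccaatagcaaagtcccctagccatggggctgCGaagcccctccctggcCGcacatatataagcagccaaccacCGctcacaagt
Tbx20 promoter: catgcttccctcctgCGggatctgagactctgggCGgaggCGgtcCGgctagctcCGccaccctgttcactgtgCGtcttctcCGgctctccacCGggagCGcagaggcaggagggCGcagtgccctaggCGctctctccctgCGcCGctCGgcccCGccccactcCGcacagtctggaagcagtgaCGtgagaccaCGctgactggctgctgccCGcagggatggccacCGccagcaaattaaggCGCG

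The values were used as deposited, under the name of read counts. They were read as the mean signal of a region in a library. Multiplied by the length of the region, every value was a whole multiple of a step of its library (45.0 and 61.2 in Pou4f1 replicates 1 and 2, 76.2 in the library named IgG and 88.9 in the library named Negative8, within a tolerance of 0.05 steps), and the commonest low value in both IgG libraries was 80 covered bases. A read equivalent below is 80 covered bases. This unit was taken from the IgG libraries, is longer than a 75-nt read and is not a count of reads. Neither the sequencing depth nor the scaling of the signal is known, and no interval for counting error was computed. Over the whole table, median signals were 184 in Pou4f1 replicate 1, 155 in replicate 2, 4.78 in IgG and 7.96 in Negative8. Groups were compared with limma on log2(signal + 1), taking 0.05 as the threshold for p-values adjusted by Benjamini-Hochberg across the 8038 regions. The pseudocount of 1 shrinks the log2 difference where signal is low. SEACR, the peak caller, had chosen the regions for their enrichment, so an excess over IgG was partly built into the table.

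All 7 T-box regions had both Pou4f1 libraries above both IgG libraries, as did 96.5% of all regions. The difference passed the threshold in 3 of the 7, at the starts of Tbx3 and Tbx20 and upstream of Tbx3, against 64.8% of all regions. Each of these 3 calls was lost in 6 of 12 alternative fits, including those without either Pou4f1 replicate, and over these fits the count ran from 0 to 7. None was lower (limma, 0 of 7), and at an unadjusted p under 0.05 the counts were 4 higher and 0 lower. The median log2 difference was 5.36 for the T-box regions and 5.22 for all regions. Their median Pou4f1 signal, the mean of both replicates, was 132 against 173, and 5 of the 7 lay below the median of all regions.

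**Figure D1:**
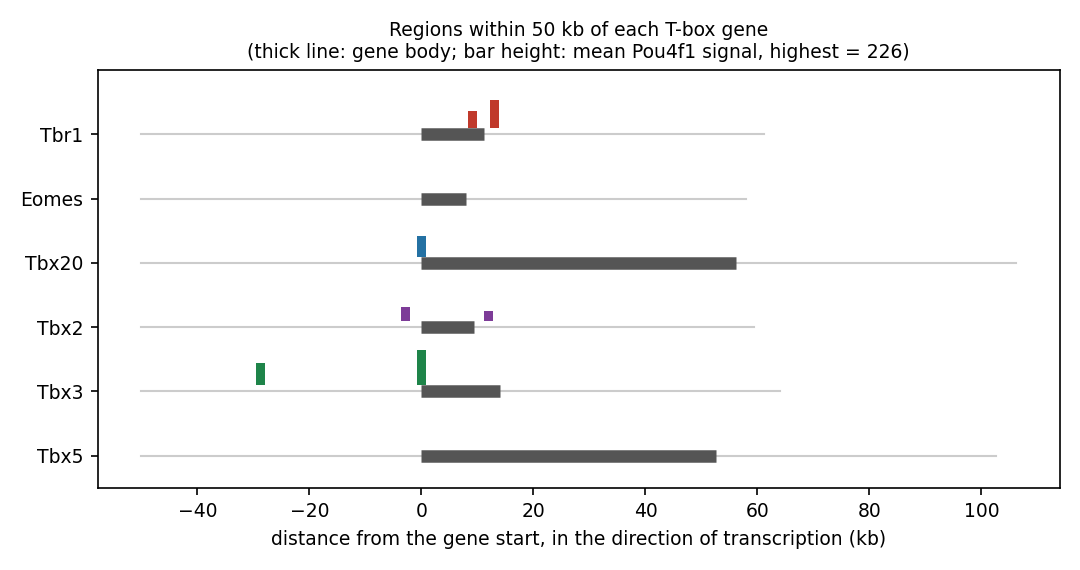
Position of the Pou4f1 regions along each of the 6 T-box loci, in kb from the annotated start of the gene in its own reading direction, with the gene body drawn as a thick line and each region as a coloured bar at its midpoint, of fixed width and as high as its mean Pou4f1 signal. Regions lie over the start at Tbx3 and Tbx20 but not at Tbr1 or Tbx2, and the windows of Eomes and Tbx5 hold 0.

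Tbr1 (ENSMUSG00000035033.15, plus strand of chromosome 2, 61802930 to 61814114) had no region near its start. Both of its regions lay at the 3' end, 3224 bp apart, with midpoints 9.06 kb and 13.1 kb from the annotated gene start, or 7.54 kb and 11.5 kb from the start in RefSeq. GENCODE lists 4 transcript starts for Tbr1, and the nearest lay 5716 bp from the midpoint of a region.

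The exon 6 region (61811552 to 61812426) is 875 bp long, of which 844 bp are coding. Its signal was 156 and 66.7 in Pou4f1 replicates 1 and 2, 0 in IgG and 15.7 in Negative8. Both Pou4f1 values were above both IgG values but below the median of their own library, replicate 2 more so. In read equivalents these were 38.0 and 11.9 for Pou4f1 and 0 and 1.94 for IgG. The log2 difference was 4.66 ± 1.71 (SE, n = 2 against 2, limma adjusted p = 0.0810), and by mean Pou4f1 signal the region ranked 6307 of 8038.

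The downstream region (61815651 to 61816336) is 686 bp long, begins 1537 bp past the end of Tbr1 and is intergenic. Its signal was 176 and 184 in Pou4f1, 0 in IgG and 18.3 in Negative8. Here the Pou4f1 replicates were close to each other and well above both IgG libraries. This gave a log2 difference of 5.36 ± 1.72 (limma adjusted p = 0.0638), and the region ranked 3810. Relative to exon 6, it was 1.12 times as high in replicate 1 and 2.76 times in replicate 2, so that the order of both Tbr1 regions was the same in the replicates but the gap between them was not. With 1 library per replicate this has no test.

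Tbx3 (ENSMUSG00000018604.18, plus strand of chromosome 5, 119670669 to 119684724) encodes a repressor within the dorsal retina programme and was the locus with the strongest region. The region at its start (119670107 to 119671126) has its midpoint 53 bp upstream of the start and covers 458 bp of untranslated exon. Its signal was 292 and 161 in Pou4f1, 0 in IgG and 6.97 in Negative8. Both Pou4f1 libraries were far above IgG, where only 1 read equivalent was present. The log2 difference was 6.27 ± 1.28 (limma adjusted p = 0.0297), and the region ranked 2634, the highest of the 7.

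The upstream Tbx3 region (119641367 to 119642623) ends 28046 bp before the gene begins, within the noncoding gene Tbx3os1 but in none of its exons. The nearest annotated start was that of another noncoding gene, Gm16064, 4139 bp away. The signal of the region was 157 and 126 in Pou4f1, 4.85 in IgG and 0 in Negative8. The lowest Pou4f1 value was 26.0 times the highest IgG value, the widest separation among the 7 regions. That IgG value stands for 1.0 read equivalent, which limits the precision of the ratio. Pou4f1 exceeded IgG by a log2 difference of 5.87 ± 1.08 (limma adjusted p = 0.0241). It was the only T-box region with few CpG, at an observed over expected ratio of 0.170 and a GC content of 49.4%, and the only one with the POU letters shown above.

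Tbx20 (ENSMUSG00000031965.15, minus strand of chromosome 9, 24718138 to 24774303) had 1 region, over its start (24773839 to 24774775, 937 bp). The midpoint lay 4 bp from the start, and the region covered 458 bp of untranslated exon and 7 bp of coding sequence. Its signal was 189 and 75.7 in Pou4f1, 4.07 in IgG and 0 in Negative8. Replicate 2 was well below replicate 1 yet far above IgG, whose value was less than 1 read equivalent (0.625). The log2 difference was 5.75 ± 1.12 (limma adjusted p = 0.0273), and the region ranked 5500, the median of the 7.

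Tbx2 (ENSMUSG00000000093.6, plus strand of chromosome 11, 85832551 to 85841948) encodes another repressor within the dorsal programme. This locus had the weakest regions, 1 on each side of the gene and neither within it. The upstream region (85829130 to 85830198) ends 2353 bp before the gene begins, in an intron of the noncoding gene 2610027K06Rik. Its signal was 111 and 65.0 in Pou4f1, 11.4 in IgG and 52.4 in Negative8. The Negative8 value came close to Pou4f1 replicate 2, which was only 1.24 times as high. The log2 difference was 1.74 ± 0.96 (limma adjusted p = 0.167), the smallest of the 7. A Negative8 signal over 50 occurred in 377 regions (4.69%), and this was the only one of them among the 7.

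The downstream Tbx2 region (85843817 to 85845107) begins 1869 bp past the end of the gene and is intergenic. Its signal was 88.3 and 42.3 in Pou4f1, 14.4 in IgG and 0 in Negative8. The groups did not overlap, but this was the lowest Pou4f1 signal among the 7, with rank 7727 of 8038. Its log2 difference was 3.99 ± 1.65 (limma adjusted p = 0.1001). The nearest annotated start was that of Gm11444, 5871 bp away, and the region also lies within 50 kb of Tbx4.

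Eomes (ENSMUSG00000032446.14, plus strand of chromosome 9, 118478212 to 118486132) and Tbx5 (ENSMUSG00000018263.11, plus strand of chromosome 5, 119832668 to 119885219) had 0 regions in their windows. The region nearest to Eomes (chr9:118370500-118371303) ended 107 kb upstream of the gene, with a signal of 131 and 208 in Pou4f1 and 4.36 and 17.1 in IgG and Negative8. The region nearest to Tbx5 was the one at the Tbx3 start, 162 kb away. The table lists only regions that passed the peak caller, so the signal at Eomes and Tbx5 themselves is unknown. Of 21755 protein-coding genes, 46.4% had 0 regions within 50 kb, 29.7% had 1, 15.2% had 2 and 8.66% had 3 or more.

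**Figure D2:**
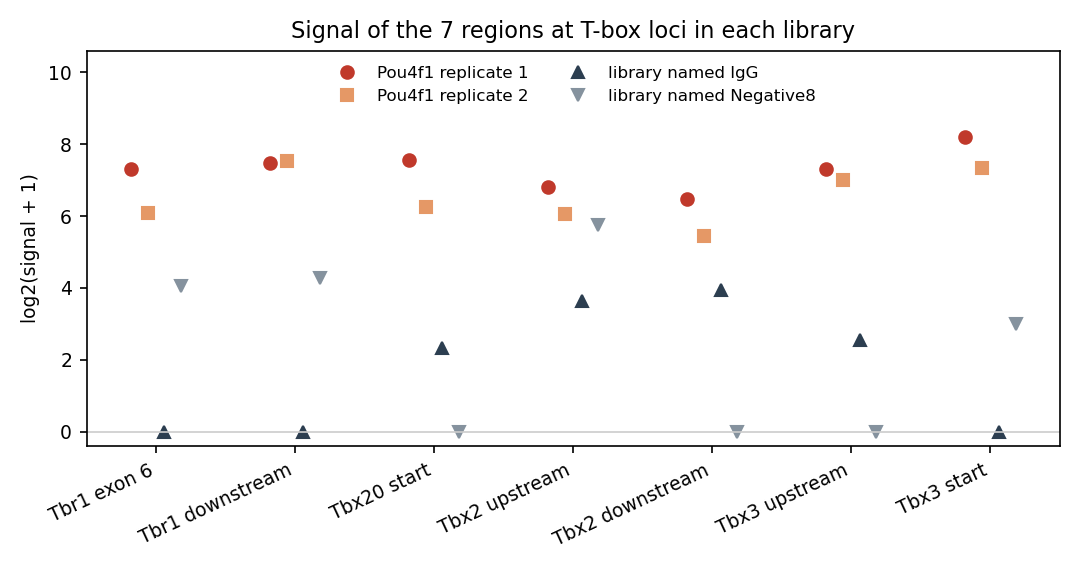
Signal of the 7 T-box regions in each of the 4 libraries as log2(signal + 1), with Pou4f1 replicates 1 and 2 and the libraries named IgG and Negative8 as separate points. Both Pou4f1 points lie above both IgG points in all 7, with the narrowest gap upstream of Tbx2 (a signal of 65.0 against 52.4).

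Among all regions the T-box regions sat mainly in the lower part. The Tbx3 start was stronger than 67.2% of all regions and the Tbr1 downstream region stronger than 52.6%. The Tbx3 upstream region exceeded 36.2%, Tbx20 31.6%, Tbr1 exon 6 21.5%, and the Tbx2 regions 11.2% and 3.87%. Regions within 1 kb of a start (5147) and away from one (2881) differ in strength, with median signals of 158 and 212, so each T-box region was also ranked within its own class. There the Tbx3 start exceeded 74.5% of the start regions and Tbx20 35.7%, while the Tbr1 regions exceeded 39.5% and 18.5% of the regions away from a start. The Tbx3 upstream region exceeded 27.3% of that class and the Tbx2 regions 12.3% and 6.28%. All 5 T-box regions away from a start were therefore below the median of their class.

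**Figure D3:**
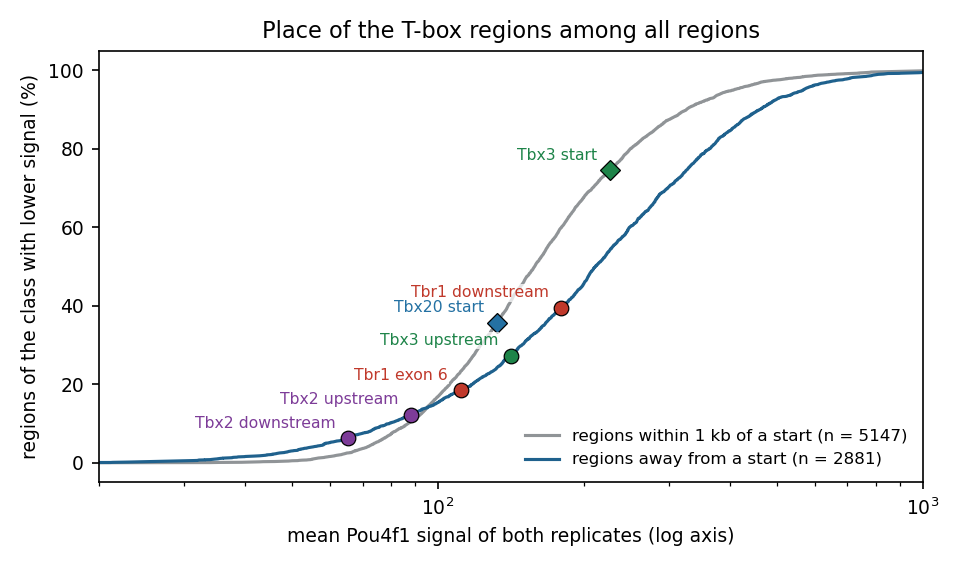
Percentage of regions of a class with a lower signal against the mean Pou4f1 signal of both replicates (log axis), as 1 curve for regions within 1 kb of a start and 1 for regions away from one, with the 7 T-box regions marked on the curve of their class. The Tbx3 start is the only one above the middle of its curve (74.5%), and the 5 away from a start lie between 6.28% and 39.5%.

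To compare Tbr1 with the other loci within each library, the mean log2(signal + 1) over the Tbr1 regions was set against that over the other 5 T-box regions. Tbr1 was higher by 0.11 and 0.39 in Pou4f1 replicates 1 and 2 and by 2.42 in Negative8, and lower in the library named IgG (-2.49). The mean of the Pou4f1 libraries minus that of the IgG libraries was 0.29 (two-sided exact permutation test over libraries, p = 1.0, where 2 against 2 can go no lower than 0.333). The IgG libraries lay much further apart in this measure than the groups did. With 2 against 2 libraries the test could not have detected a difference between Tbr1 and the other loci. At both Tbr1 regions the library named IgG was at 0, whereas at 3 of the other 5 regions Negative8 was.

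The T-box regions that passed the threshold and those that did not differed in their IgG values, which enter the test itself. Of the 7, 6 were at 0 in exactly 1 IgG library. The 3 that passed had 0.625 to 1.0 read equivalents in the other IgG library, with a signal of 4.07 to 6.97. The 3 that did not, both Tbr1 regions and Tbx2 downstream, had 1.76 to 3.05, with a signal of 14.4 to 18.3. Genome-wide, 3516 regions were at 0 in exactly 1 IgG library, and 39.4% of these passed. With 1 IgG library at 0, the value of the other sets both the IgG mean and the spread of the IgG pair. It therefore enters the adjusted p by construction, together with the level and spread of the Pou4f1 values. Among the 3 that did not pass, adjusted p (limma) was 0.1001 at Tbx2 downstream, with 14.4, and 0.0638 at Tbr1 downstream, with 18.3. The mean Pou4f1 signal was 180 at Tbr1 downstream, 142 upstream of Tbx3 and 132 at Tbx20. The part of the IgG values in the calls was not tested.

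**Figure D4:**
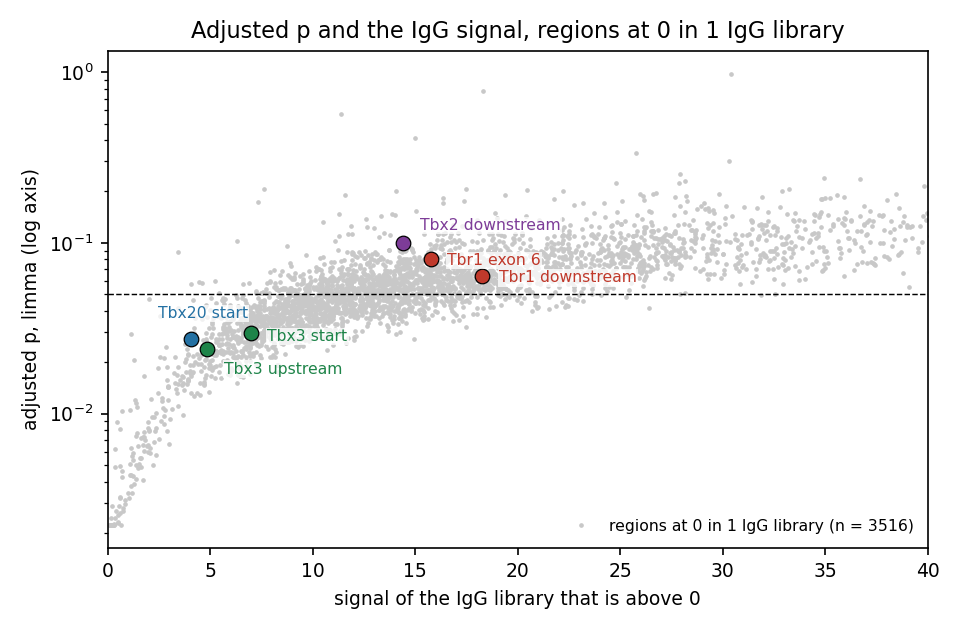
Adjusted p from limma (log axis) against the signal of the IgG library that is above 0, for regions at 0 in exactly 1 IgG library, with the 6 T-box regions of this kind coloured by locus and the threshold of 0.05 dashed. The 3 T-box regions with an IgG signal of 4.07 to 6.97 lie under the line and the 3 with 14.4 to 18.3 above it, and the axis stops at 40, with 244 of the 3516 regions beyond.

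The Pou4f1 replicates differed in 1 direction at most T-box regions. Replicate 1 was higher in 6 of 7, against 66.8% of all regions, and more than 2-fold higher in 3 of 7 (Tbr1 exon 6, Tbx20 and Tbx2 downstream), against 15.3%. Among CpG-rich regions, the kind that 6 of the 7 belong to by the limits given below, replicate 1 was higher in 85.6% of those near a start and in 77.8% of those away from one. The ratio of replicate 2 to replicate 1 was lowest at Tbx20 (0.400) and Tbr1 exon 6 (0.427) and highest at Tbr1 downstream (1.05). Across all regions the ratio went with class, with a median of 0.701 within 1 kb of a start and 1.16 away from one. The T-box regions away from a start ran from 0.427 to 1.05, all below the median of their class. Among CpG-rich regions away from a start the median was 0.738. Tbr1 downstream lay above that value, and Tbr1 exon 6 and both Tbx2 regions lay below it.

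The Tbr1 regions had a base composition that is uncommon away from starts. A region was called CpG-rich if its GC content was at least 50% and its observed over expected CpG ratio at least 0.6, the usual marks of a CpG island. Of the 5 T-box regions away from a start 4 were CpG-rich, namely both at Tbr1 and both at Tbx2, against 248 of 2881 regions of that class (8.61%). The Tbr1 exon 6 region had a GC content of 72.1% and a ratio of 1.06, and Tbr1 downstream 70.3% and 0.697. The Tbx2 regions were just inside the limit, at 0.607 upstream and 0.609 downstream, and with a limit of 0.65, chosen after the data were seen, the count was 2 of 5 (5.45% of the class), both at Tbr1. Both T-box regions over a start were CpG-rich (0.621 at Tbx20 and 0.811 at Tbx3), as were 85.0% of start regions.

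Genome-wide, the CpG-rich regions away from a start formed a weaker set. Their median signal was 103 against 224 for the others of the class, their median ratio of replicate 2 to replicate 1 was 0.738 against 1.21, and 46.8% passed the threshold against 71.9%. The median log2 difference was 3.99 against 6.07. Both Tbr1 regions had a mean Pou4f1 signal above that lower median (111 and 180), and both Tbx2 regions one below it (88.2 and 65.3). Whether base composition played a part in the signal was not tested.

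**Figure D5:**
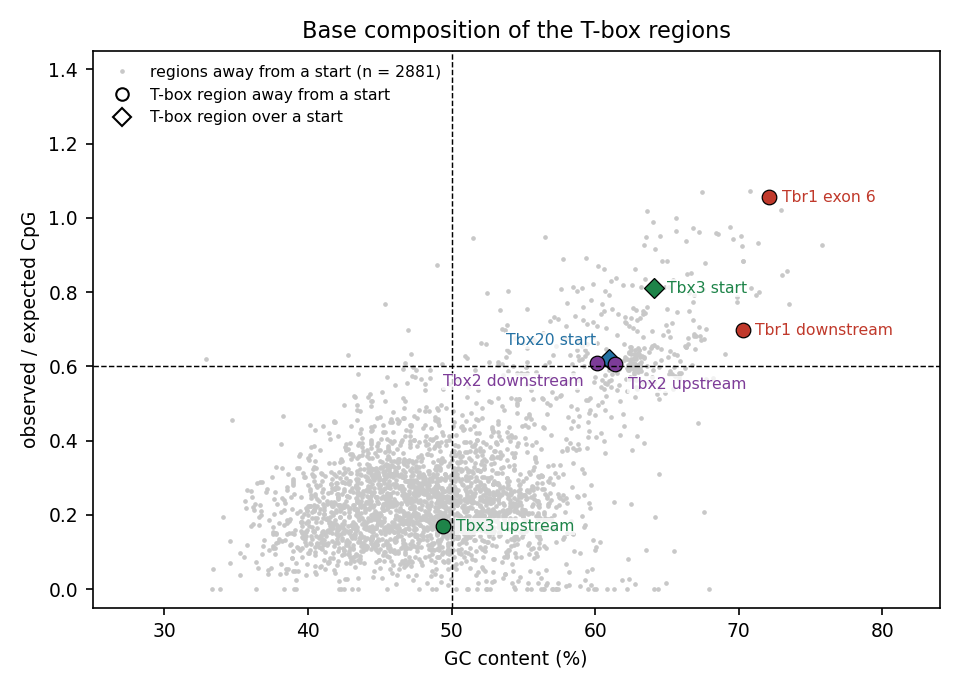
GC content (%) against the observed over expected CpG ratio for the regions away from a start (grey, n = 2881) and the 7 T-box regions, as circles away from a start and diamonds over one, with dashed lines at 50% and 0.6. The Tbr1 regions lie at the upper right, at 72.1% and 70.3%, and Tbx3 upstream lies in the cloud of CpG-poor regions, at 49.4%.

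At the starts themselves, the 6 genes were near the shares found genome-wide. Within 500 bp of the annotated gene start, Eomes, Tbx20, Tbx2 and Tbx3 were CpG-rich, and of these Tbx20 and Tbx3 had a region (2 of 4). Tbr1 and Tbx5 were not CpG-rich, and neither had a region (0 of 2), which also held for each of the 4 annotated transcript starts of Tbr1 and the 3 of Tbx5. Of all protein-coding genes, a region lay within 1 kb of the start in 4280 of 9739 with a CpG-rich start (43.9%) and in 604 of 12016 others (5.03%). All 3 annotated starts of Eomes were CpG-rich without a region.

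Motifs were counted on both strands in the whole length of each region. The POU class IV pattern ATNAATNAT, where N is any base, occurred in 1 of 7 T-box regions, that upstream of Tbx3, against 21.7% of all regions on chromosomes, 47.9% of those away from a start and 7.01% of those near one. Among CpG-rich regions away from a start it occurred in 6.45%, and none of the 4 T-box regions of that kind had it. The other patterns searched were a POU class IV core ATAATTAAT (2.48% of all regions), the octamer ATGCAAAT (3.64%), the homeodomain core TAATTA (14.1%) and the T-box site AGGTGTGA (3.31%), and each occurred in 0 of the 7. These patterns overlap in their letters, and a match describes sequence only. In the promoters shown above, TAATTA occurred in the Tbr1 promoter at 2 places, against 1 or more in 4.84% of 32851 RefSeq promoters cut to the same length, and it was absent from those of Eomes and Tbx20. Neither POU class IV pattern occurred in any of these promoters.

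The regions of the whole table closest to the Tbr1 regions over the 4 libraries, by Euclidean distance on log2(signal + 1), lay within 1 kb of a start in 5 of 6 cases, as did 64.1% of all regions on chromosomes. The closest to exon 6 lay over the starts of Rpl36a (distance 0.084), a ribosomal protein gene, Enox2 (0.102) and Spc25 (0.1198), a kinetochore gene. The closest to Tbr1 downstream were those at Fam135a (0.118), at its start, Shf (0.122), 6690 bp from its start, and Atp1b1 (0.140), 768 bp from its start. A distance over 4 values describes likeness of signal only.

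Other T-box genes were examined as a list of 11, of which 5 had regions within 50 kb, as did 53.6% of all protein-coding genes. These were 6 regions, with the downstream Tbx2 region counted again at Tbx4, and 2 of them passed the threshold, against 64.8% of all regions. The region within 50 kb of Tbx18, a gene of mesenchyme and heart development, had a signal of 210 and 202 in Pou4f1 and 0 in both IgG libraries (limma adjusted p = 0.00222), although the nearest start was that of D030062O11Rik. Near Tbx21, the T-cell factor T-bet, a region had 152 and 148 against 8.69 and 10.3 (limma adjusted p = 0.00633). The start of Mga, which pairs a T-box with a Max-binding domain, had 278 and 194 against 0 and 54.4 (limma adjusted p = 0.125). No member of this list had a region over its start other than Mga.

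Genes of the dorsal side of the retina, genes of the ventral side, and genes tied to Tbr1 or Eomes in RGCs gave the following counts. They stand beside 53.6% of all protein-coding genes with a region within 50 kb and 64.8% of all regions that passed. Of 6 dorsal genes 3 had regions, and 2 of the 3 regions passed, at the Bambi start (limma adjusted p = 0.0137) and near Bmp4 (limma adjusted p = 0.00222), while Efnb2 did not (limma adjusted p = 0.0668). Of 7 ventral genes 4 had regions, and 6 of 9 passed. Near Aldh1a3, a ventral retinoic acid synthesis gene, a region nearest to the start of Lrrk1 had 491 and 731 in Pou4f1 against 12.1 and 0 (limma adjusted p = 0.0303), while the one at the Aldh1a3 start had 129 and 51.7 against 0 and 19.3 (limma adjusted p = 0.109). Of 9 genes tied to Tbr1 or Eomes in RGCs 7 had regions, and 14 of 15 passed. Of these 15, 10 lay at Pou4f1, Pou4f2 and Isl1, which also count among the RGC markers (9 of 10 passed), and 5 of 5 passed at the other genes. The authors had already reported binding in these data at Jam2, Sorcs3, Pou4f1, Pou4f2 and Isl1, so this count is not independent of theirs. Opn4, the melanopsin gene of the RGCs that need Eomes, had a region with 176 and 216 against 7.12 and 9.55 (limma adjusted p = 0.00562). The midpoint of this region lay 9.19 kb from the Opn4 start, and the nearest start was that of Gm49012. The authors state that RGCs of this kind do not express Pou4f1. Jam2, a marker of a Tbr1 subtype, had regions over its own start and that of Atp5j that both passed.

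Marker genes of cell types and tissues were read in the same way, beside 53.6% of protein-coding genes with a region within 50 kb and 64.8% of regions past the threshold. All 9 RGC markers had a region within 50 kb and 19 of 21 regions passed, as did 4 of 5 progenitor markers (4 of 4 regions) and 2 of 4 photoreceptor markers (2 of 3). Of the markers of tissues outside the retina, 2 of 4 for dorsal telencephalon had regions (2 of 2 passed) and 2 of 4 for heart (3 of 3). These tissues express Tbr1, Eomes or Tbx20 in their own right. A region at a gene does not measure its expression, so these counts cannot give the cells the signal came from. The authors had already reported Pou4f1, Pou4f2, Isl1, Rbpms, Sncg and Gap43 as bound in these data. The count for RGC markers is therefore no independent check of the tissue.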

How the data were processed

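Per the labels and the methods, CUT&Tag libraries from pooled E16.5 wild-type retinas were sequenced as 75-nt pairs. The authors trimmed and masked the reads, aligned them to mm10 with Bowtie2 2.4.5 and ran SEACR (relaxed mode) to call regions, and the submitters' processing notes name the same tools. They deposited 1 table of values, read here as mean signal, for 8038 regions in 4 libraries. The scaling of the signal, like any pooling of libraries before calling, was not stated in these sources. The Negative8 column was read as IgG, since no other negative control is named. Unassigned columns numbered 0.

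Regions were taken within 50 kb of each gene (GENCODE M21), with sequence from GRCm38.p6. Pou4f1 (n = 2) was compared with IgG (n = 2) on log2(signal + 1) by limma 3.58.1 (R 4.3.3). No covariate or further scaling was used, and p-values were adjusted by Benjamini-Hochberg over the whole table. The fit was also run on simulated data with normal noise, and no result given here rests on that run. A contrast of Tbr1 with the other loci used an exact permutation test over libraries. Tables were handled in Python 3.11.15 with pandas 2.3.3, numpy 2.4.6 and scipy 1.17.1, and plots were drawn with matplotlib 3.10.9. Midpoints within 1 kb of a transcript start counted as near a start.

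The members, gene lists, marker lists and motifs were chosen with earlier results of these data known. The text names the 6 genes and their regions, the gene with the nearest start, the 3 regions most like each Tbr1 region, and up to 3 genes of each list by signal. Opn4, which falls outside this rule, was named after its values were seen. The limits for CpG-rich sequence and for the Negative8 signal (50), and the classes compared on them, were also chosen after the data were seen. Alternatives were other scalings, pseudocounts, filters, windows, ways of ranking and each library left out in turn.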

Additional observations from a re-analysis of the deposited data

How the results depend on the processing

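The calls at T-box loci depended on the scaling, the pseudocount and single libraries. With the column totals of signal as library sizes, which shifted the median log2 difference of all regions by -2.48, 1821 regions in all and 0 T-box regions were higher, and with IgG taken as 2 or 4 times shallower 2949 and 2152 in all and 0 T-box regions, against 5205 and 3 as reported. Scaling by column totals makes the summed signal of all libraries equal. It thereby removes part of an excess over IgG for which the peak caller had chosen the regions. A pseudocount of 0.1 gave 0 T-box regions and one of 10 gave 6. At an unadjusted p under 0.05, limma gave 0 with column totals, 3 and 0 with the shallower IgG, 1 with the pseudocount of 0.1 and 0 without either Pou4f1 replicate. Without each library in turn the counts ran from 2360 to 7710 in all and from 0 (without either Pou4f1 replicate) to 7 (without Negative8) at T-box loci, with 6 without the library named IgG. In those fits a group of 1 library is assumed to vary like the other group. The calls at the Tbx3 regions and Tbx20 were each lost in 6 of 12 alternatives, and Tbr1 and Tbx2 downstream each gained a call in 3. Adjusted p ran from 1.51e-19 to 0.620 for Tbr1 exon 6, from 5.46e-24 to 0.584 for Tbr1 downstream and from 1.60e-25 to 0.478 for the Tbx3 start. The Tbx2 upstream difference changed sign to -2.22 with column totals and -0.20 with IgG taken as 4 times shallower. The Tbr1 contrast of 0.29 became -0.50 with the median over regions, and ran from -2.17 (without the library named IgG) to 2.74 (without Negative8) with libraries left out. Assigning each region to the gene of the nearest start left 4 regions, and ranking by replicate 2 alone moved the median rank from 5500 to 6676. A filter on low signal, a trend of spread on level and a 2-fold threshold each gave 3 T-box calls, and the cause of these changes was not tested. No paired analysis was possible because the columns of the IgG libraries carry no replicate numbers. At most T-box regions the IgG values stand for 0 to 3.05 read equivalents, with 7.88 in Negative8 upstream of Tbx2, and this limits their precision.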
